A study of Mus musculus with 24 samples.

Results

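Metallothioneins and the proteins that carry zinc and iron across membranes were followed in the cerebral cortex and the blood of mouse neonates whose dams breathed nano-sized particulate matter (nPM) or filtered air. The 10 genes were found by their symbols in the gene table, and they are 10 of 48709 genes in it. They are the metallothioneins Mt1, Mt2 and Mt3, the zinc transporters Slc30a1 and Slc39a14, the iron uptake genes Tfrc and Slc11a2, the ferritin subunits Fth1 and Ftl1, and the iron exporter Slc40a1. The rule used symbols only and no measured value.

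Metallothioneins are small cysteine-rich proteins that bind zinc, copper and cadmium. Zinc brings the transcription factor MTF1 to metal response elements in the promoters of Mt1, Mt2 and Slc30a1, so that cells with more free zinc make more of the proteins that bind it or pump it out. Iron is controlled mainly after transcription. Iron regulatory proteins hold short hairpins in the transcripts of ferritin, transferrin receptor and ferroportin, which blocks ferritin translation and protects the transferrin receptor transcript when iron is scarce. Erythroid precursors take up most of the body's iron through the transferrin receptor, and in the brain Mt3 is made by neurons and astrocytes. The metal content of airborne particles is one reason to look at these genes, and no metal was measured here.

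The study compared neonates exposed before birth to nPM, a fraction of traffic-derived urban particles, with neonates of dams kept in filtered air. There were 24 RNA-seq libraries, 12 of whole blood and 12 of dissected cortex, with 3 for each sex and exposure in each tissue. The labels give all animals as C57BL/6J, 3 to 5 days old, with exposure for 5 h a day on 3 days a week from gestational day 2 until birth. The labelled concentration is 300 mg/m3, whereas the methods of the study give the same number in micrograms and the substrain C57BL/6NJ. No animal carried a transgene or other engineered allele. The 3 neonates of each sex and exposure came from different litters. The litter of each library was not known here, so males and females of the same exposure could be littermates. The fits over both sexes treated them as independent. Whole tissue was used without sorting, and the labels do not tie a blood library to a cortex library of the same animal.

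The 3 metallothionein genes lie together on chromosome 8 (mm10 coordinates throughout). Mt3 (ENSMUSG00000031760) spans 94152607 to 94154146, Mt2 (ENSMUSG00000031762) spans 94172664 to 94173568 and Mt1 (ENSMUSG00000031765) spans 94179082 to 94180327, all on the plus strand. Between them 18517 bases separate Mt3 from Mt2 and 5513 bases separate Mt2 from Mt1. Slc30a1 (ENSMUSG00000037434) is on chromosome 1 at 191906767 to 191913247 and Slc39a14 (ENSMUSG00000022094) on chromosome 14 at 70303469 to 70351425. Tfrc (ENSMUSG00000022797) is on chromosome 16 at 32608920 to 32632794 and Slc11a2 (ENSMUSG00000023030) on chromosome 15 at 100387898 to 100425072. Fth1 (ENSMUSG00000024661) is on chromosome 19 at 9982703 to 9985092, Ftl1 (ENSMUSG00000050708) on chromosome 7 at 45457944 to 45459884 and Slc40a1 (ENSMUSG00000025993) on chromosome 1 at 45908068 to 45926523. Counts of Mt2 and Slc30a1 are uncertain to the extent that antisense genes overlap them, because the use of strand in counting is not stated. The same holds for Slc11a2, which the coding gene Gm5475 overlaps on the other strand, and for Ftl1, which Gm10252 overlaps on the other strand and Gm22133 on its own. Both ferritin genes have processed pseudogene copies in the mouse genome, and reads shared with these could have been split.

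Promoter windows from RefSeq (GRCm38.p6) were at hand for 7 of the 10 genes, and they were searched on both strands for the metal response element cores TGCACNC and TGCGCNC. The windows of Mt1, Mt2 and Slc30a1 are shown because of the zinc response described above. That of Mt3 is shown because Mt3 lies in the same cluster as Mt1 and Mt2. Each window holds 300 bases in the direction of the gene, written 5′ to 3′, with the cores in capitals. A core on the opposite strand appears as its reverse complement.
Mt1, chr8:94178839-94179138, plus strand: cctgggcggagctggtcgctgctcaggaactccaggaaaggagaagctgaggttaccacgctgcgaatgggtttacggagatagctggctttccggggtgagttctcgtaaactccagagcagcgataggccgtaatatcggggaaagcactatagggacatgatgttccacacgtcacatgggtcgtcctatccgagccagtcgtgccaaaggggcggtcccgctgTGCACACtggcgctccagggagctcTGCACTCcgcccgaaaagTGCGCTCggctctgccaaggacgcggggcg
Mt2, chr8:94172368-94172667, plus strand: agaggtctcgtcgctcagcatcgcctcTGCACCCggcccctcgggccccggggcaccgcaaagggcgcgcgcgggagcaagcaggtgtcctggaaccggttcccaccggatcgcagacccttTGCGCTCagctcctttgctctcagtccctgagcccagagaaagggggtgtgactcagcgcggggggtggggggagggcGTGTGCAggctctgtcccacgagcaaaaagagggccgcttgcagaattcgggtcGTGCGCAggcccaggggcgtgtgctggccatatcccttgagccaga
Mt3, chr8:94152357-94152656, plus strand: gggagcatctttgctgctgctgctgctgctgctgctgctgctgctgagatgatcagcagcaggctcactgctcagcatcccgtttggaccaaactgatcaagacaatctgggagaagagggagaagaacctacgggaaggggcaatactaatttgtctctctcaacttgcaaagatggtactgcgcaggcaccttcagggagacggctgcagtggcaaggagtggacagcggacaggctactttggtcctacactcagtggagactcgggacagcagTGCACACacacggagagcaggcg
Slc30a1, chr1:191906531-191906830, plus strand: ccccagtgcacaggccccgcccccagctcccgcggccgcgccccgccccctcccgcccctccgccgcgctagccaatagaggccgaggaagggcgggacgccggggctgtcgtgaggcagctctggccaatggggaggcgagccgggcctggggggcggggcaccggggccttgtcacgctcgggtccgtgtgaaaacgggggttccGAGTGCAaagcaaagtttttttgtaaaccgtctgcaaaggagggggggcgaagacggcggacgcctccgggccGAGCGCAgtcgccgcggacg

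The Mt1 window held 3 cores and the Mt2 window 4, against 1 in the Mt3 window and 2 in the Slc30a1 window. At least 3 cores were found in 1.97% of all 32817 promoter windows, at least 4 in 0.518% and at least 1 in 25.7%. Of the 2 Tfrc windows, 1 held 2 cores that overlap each other, and the Fth1 and Ftl1 windows held none of these letters. A match describes the sequence and does not show binding.

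Iron responsive elements are shown next, because iron regulatory proteins bind such hairpins. A hairpin of 19 bases around the loop CAGTGN (N not G) was searched over whole coding transcripts, coding sequence included (GRCm38). The loop is in capitals. Fth1, Ftl1 and Slc40a1 had 1 each in the 5′ untranslated part and Tfrc had 4 in the 3′ untranslated part. Of 21901 coding genes, 1.01% had a match anywhere in a transcript. A fully paired stem and this exact loop were required, so other forms of the element would be missed. The lack of a match in a gene such as Slc11a2 thus does not show that it has no such element.
Fth1, chr19:9982736-9982754, plus strand: tgcttcaaCAGTGCttgaa
Ftl1, chr7:45459785-45459803, minus strand: tgcttcaaCAGTGTttgaa
Slc40a1, chr1:45925471-45925489, minus strand: ttcagctaCAGTGTtagct
Tfrc, chr16:32631223-32631241, plus strand: atcggaagCAGTGCcttcc
Tfrc, chr16:32631602-32631620, plus strand: atcgggagCAGTGTcttcc
Tfrc, chr16:32631667-32631685, plus strand: atcggagaCAGTGAtctcc
Tfrc, chr16:32631714-32631732, plus strand: atcgggaaCAGTGTttccc

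Cortex libraries held 22301409 to 33804371 counts on genes, with RNA integrity numbers (RIN) of 9.4 to 9.9. Blood libraries held 13595647 to 21895536 counts, with RIN of 7.5 to 9.3, apart from control female replicate 2. That library was left out of the blood comparisons. The study excluded 1 blood library, which it does not name, for its count distribution, and earlier work on these data took it to be this one, which is not certain. Blood results that turn with this choice are given beside it or at the end. Globin genes took 50.1% of its counts against 66.2 to 76.8% in the other 11 blood libraries and 0.0244 to 0.0678% in cortex. It also stood apart in 6 of the 10 genes. In CPM (the count of a gene scaled to a common library total) it held 87.0 of Slc30a1, 68.4 of Mt2, 60.9 of Slc40a1, 53.4 of Mt1, 19.4 of Slc11a2 and 13.5 of Slc39a14, where the highest of the other 11 held 2.56, 5.27, 4.01, 14.7, 2.82 and 0.669. Its keratinocyte markers (Krt1, Krt10, Krt5, Krt14, Dsp and Flg, a list added after its values were seen) summed to 10314 CPM, against at most 9.82 in the other blood libraries. This left 2 controls against 3 nPM libraries in female blood. The tissues matched their labels, with erythroid markers at 252 to 701 CPM in cortex, and cortical neuron markers at 722 to 935 CPM in cortex and at most 1.49 CPM in the blood libraries used. A count of 0 allows up to 3 counts, which is 0.0887 to 0.135 CPM in cortex and 0.137 to 0.221 CPM in blood, for counting error only. In whole tissue, fewer cells of a type and less RNA per cell cannot be told apart.

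Levels between genes were compared as TMM-scaled CPM per kilobase of gene length. TMM (trimmed mean of M values) scales the libraries of a tissue so that most genes keep their level. In cortex the ferritin light chain Ftl1 stood highest with a median of 377 over the 12 libraries, followed by the heavy chain Fth1 at 347, and their ranges overlapped. Mt3, the brain metallothionein, came next at 80.0 and overlapped neither neighbour. Tfrc, the transferrin receptor, stood at 30.8, Mt1 at 25.5 and Mt2 at 19.7, and each of these overlapped the next. Slc30a1, the plasma membrane zinc exporter ZnT1, stood at 8.04 and Slc11a2, the divalent metal transporter DMT1, at 6.12. The iron exporter ferroportin, Slc40a1, followed at 3.40 and Slc39a14, the importer ZIP14 that carries zinc, manganese and iron, was lowest at 1.75. These lower 4 did not overlap one another. Spread between cortex libraries was small, with a coefficient of variation from 5.05% for Slc39a14 to 14.9% for Mt2.

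**Figure D1:**
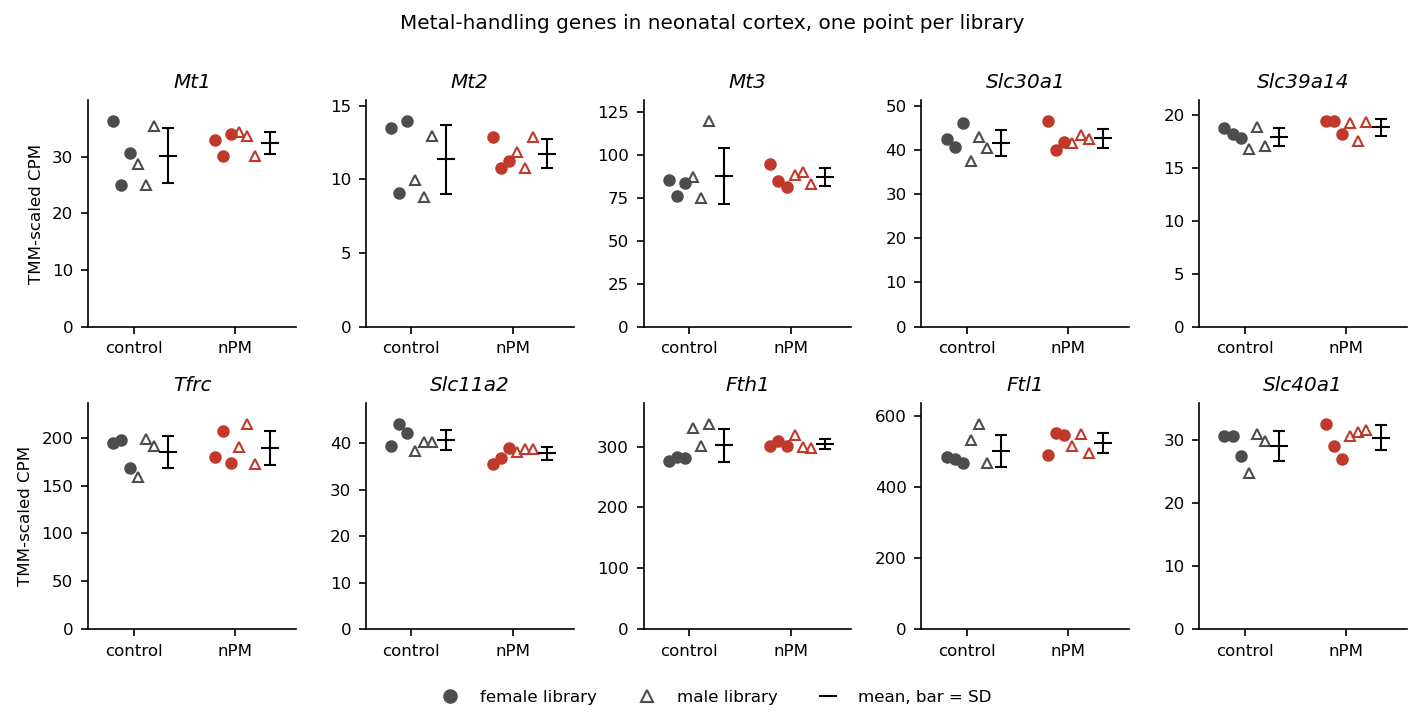
Levels of the 10 genes in the 12 cortex libraries as TMM-scaled CPM by exposure, with 1 point per library (filled for females, open for males) and a bar of 1 SD about each mean. The nPM and control libraries overlap for every gene, and the control male replicate at 119.8 CPM of Mt3 lies above the other 11.

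The order in blood was wider. Ftl1 had a median of 2517 per kilobase over 11 libraries, Fth1 634 and Tfrc 21.3, with no overlap between them. Everything else was at or below about 1, with Mt2 at 0.955, Mt1 at 0.738, Slc11a2 at 0.346, Slc40a1 at 0.323 and Slc30a1 at 0.289, and each of these ranges overlapped the next. Slc39a14 stood at 0.0201 and Mt3 at 0. The metallothioneins varied most between blood libraries, with a coefficient of variation of 178% for Mt1 and 142% for Mt2, against 19.02% for Slc40a1 and 24.1% for Ftl1.

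Prenatal nPM was compared with filtered air in cortex first, to ask whether metal handling genes respond in the developing brain. None of the 10 genes passed an adjusted p of 0.05 in edgeR's quasi-likelihood test with sex and RIN as covariates. Over all 20857 genes tested, 0.0144% passed. At an unadjusted p under 0.05, 1 of the 10 passed, Slc11a2, against 5.67% of all genes. Of the 10, 8 had a higher and 2 a lower fitted level with nPM, and their median log2 fold change was 0.04 against -0.00 over all genes.

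Among the metallothioneins, Mt1 ranged from 24.9 to 36.3 CPM in the 6 controls with a median of 29.7, and from 30.0 to 34.3 CPM with a median of 33.2 in the 6 nPM libraries. The nPM libraries all lay inside the range of the controls. The log2 fold change was 0.10 ± 0.07 (SE) with an edgeR adjusted p of 0.886. Mt2 ran from 8.80 to 13.98 CPM (median 11.5) in controls and from 10.7 to 12.9 CPM (median 11.6) with nPM. Its difference was 0.05 ± 0.12 on the log2 scale with an edgeR adjusted p of 0.965. For Mt3 the controls ran from 74.9 to 119.8 CPM (median 84.6) and the nPM libraries from 81.1 to 94.8 CPM (median 86.6), and the log2 difference was -0.01 ± 0.09 with an edgeR adjusted p of 0.991. The highest control of Mt3, male replicate 3, also had the highest summed astrocyte markers (2926 CPM, elsewhere in cortex 1993 to 2623 CPM). Its sums of cortical neuron markers (935 CPM, elsewhere 722 to 833 CPM) and microglia markers (134 CPM, elsewhere 76.2 to 107 CPM) were the highest too. So were its sums of monocyte and endothelium markers. The part of any of these cells in its Mt3 level was not tested.

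The zinc transporters were as close. Slc30a1 ran from 37.5 to 46.2 CPM in controls and from 39.9 to 46.6 CPM with nPM, a log2 difference of 0.03 ± 0.05. Slc39a14 ran from 16.7 to 18.9 CPM in controls and from 17.5 to 19.4 CPM with nPM, and 4 of 6 nPM libraries lay above every control. Its means were 17.9 ± 0.871 and 18.8 ± 0.794 CPM (SD, n = 6 each), and an exact permutation test of the means gave p = 0.0823 (two-sided). The edgeR adjusted p of Slc39a14 was 0.886.

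Slc11a2, which moves ferrous iron out of endosomes and into cells, was the gene furthest from its controls. The 6 controls ran from 38.3 to 44.2 CPM with a median of 40.3, and the 6 nPM libraries from 35.5 to 39.0 CPM with a median of 38.4. Of the nPM libraries, 3 lay below every control and the others inside the range of the controls. The means were 40.8 ± 2.11 and 37.8 ± 1.38 CPM (SD, n = 6 each), and the exact permutation test gave p = 0.0130 (two-sided; the smallest possible is 0.00216), unadjusted over the 10 genes. Without TMM scaling the exact permutation p was 0.0390. The edgeR log2 difference was -0.11 ± 0.05 with an unadjusted p of 0.0377 that became 0.862 after edgeR adjustment, so the gene did not pass the correction over all genes. The difference kept its direction when each library was left out in turn, from -0.13 to -0.08.

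The other iron genes did not separate. Tfrc ran from 159 to 199 CPM in controls and from 172 to 215 CPM with nPM, with a log2 difference of 0.04 ± 0.07. Fth1 ran from 277 to 338 CPM in controls and, more narrowly, from 298 to 318 CPM with nPM, with a difference of 0.02 ± 0.05. Ftl1 ran from 466.2 to 578 CPM in controls and from 491 to 551 CPM with nPM, with a difference of 0.07 ± 0.06. Slc40a1 ran from 24.8 to 30.9 CPM in controls and from 27.0 to 32.6 CPM with nPM, with a difference of 0.06 ± 0.07. Exact permutation p-values of these and the remaining genes other than Slc11a2 and Slc39a14 lay between 0.297 and 0.965. The choroid plexus markers, which a dissection of cortex can carry along, summed to 30.6 CPM in control male replicate 1 and to 234 to 510 CPM in the other 11 cortex libraries, and all 6 of them were fitted higher with nPM.

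Blood was compared in the same way, with 6 nPM and 5 control libraries and 9 of the 10 genes tested, since Mt3 had no count in several libraries. No gene passed at an adjusted p of 0.05 in edgeR, among the 9 or among all 9977 genes tested (0.0%), and the adjusted p of each of the 9 was 1.00. With an unadjusted p under 0.05, Mt1 was the 1 of the 9 to pass, against 3.11% of all genes. DESeq2 called 1 gene of all and limma voom 0. Fitted levels were higher with nPM for 7 of the 9 and lower for 2, and the median log2 fold change was 0.24 against 0.00 over all genes.

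Mt1 was spread far more in nPM blood than in control blood. In the 5 controls it was 0.911 and 1.00 CPM in females and 0.761, 0.920 and 0.628 CPM in males. With nPM it was 1.12, 1.16 and 14.7 CPM in females and 0.409, 0.562 and 3.70 CPM in males. Of the nPM libraries, 4 thus lay above every control and 2 below every control. The edgeR log2 fold change was 1.61 ± 0.69 with an unadjusted p of 0.0316, and the exact permutation test of the means, which are 3.61 ± 5.57 (n = 6) and 0.845 ± 0.149 CPM (SD, n = 5), gave p = 0.333. These levels rest on 8 to 299 counts a library. When each library was left out in turn the Mt1 difference ran from 0.68 to 2.46, lowest without nPM female replicate 3. The choice of the excluded library also moved it. The difference was 0.87 with all 12 blood libraries. It was 0.69 with control female replicate 3 left out in place of 2, and 0.40 with control female replicate 1 left out in its place. The counts outside the controls moved too. Without TMM scaling 2 nPM libraries lay above every control and 1 below. With all 12 blood libraries 1 lay above and 2 below, and the SD was 6.93 CPM with nPM against 2.94 CPM in controls. On plain library totals, control female replicate 2 held 53.4 CPM of Mt1 against at most 14.7 CPM in the other 11.

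Mt2 followed Mt1. Its controls were 0.342 and 0.609 CPM in females and 0.447, 1.13 and 0.236 CPM in males. The nPM libraries were 0.480, 0.656 and 5.27 CPM in females and 0.102, 0.562 and 1.53 CPM in males. Only female replicate 3 and male replicate 3 thus lay above every control. With all 12 blood libraries, 0 nPM libraries lay above every control in Mt2. Its log2 difference was 1.14 ± 0.72 with an unadjusted edgeR p of 0.128, and 0.33 without nPM female replicate 3. That library also had the highest summed platelet markers in blood (400.0 CPM, against 143 to 267 CPM in the other 10), the lowest summed lymphocyte markers (8.96 CPM, against 18.1 to 43.8 CPM) and the lowest share of globin counts (66.2%). The part of these in its metallothionein level was not tested.

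**Figure D2:**
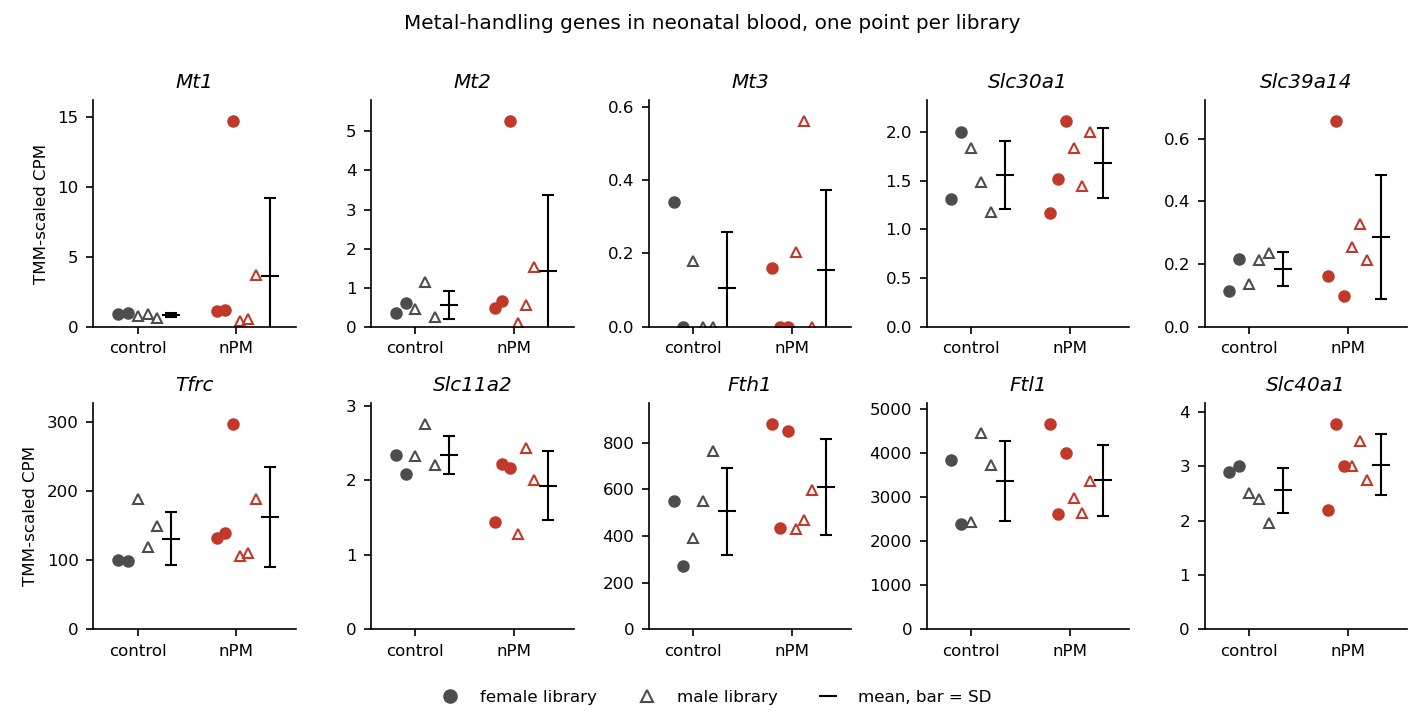
Levels of the 10 genes in the 11 blood libraries used, as TMM-scaled CPM by exposure, with 1 point per library (filled for females, open for males) and a bar of 1 SD about each mean. Mt1 and Mt2 are highest in nPM female replicate 3, at 14.7 and 5.27 CPM, and the ranges of nPM and control libraries overlap for every gene.

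Mt3 had 0 counts in 6 of the 11 blood libraries and at most 12 in the others, which is 0.562 CPM. Blood libraries of sequencing lane 3, which also held cortex, had 3 to 6 counts. Those of lane 1, which held blood only, had 0 apart from nPM male replicate 2 with 12. Summed astrocyte markers in that library were 34.3 CPM, against at most 6.29 CPM in the other blood libraries used. The part of lane or of these markers in the Mt3 counts was not tested. The zinc transporters in blood were also low, with 15 to 56 counts of Slc30a1 and 2 to 13 of Slc39a14. Slc30a1 differed by 0.09 ± 0.26 and Slc39a14 by 0.68 ± 0.47 on the log2 scale. Tfrc ran from 98.5 to 188 CPM in the 5 controls and from 105 to 297 CPM in the 6 nPM libraries, a log2 difference of 0.28 ± 0.29. Its highest library was again nPM female replicate 3, and without it the difference was 0.07. Slc11a2 in blood was 1.92 ± 0.462 with nPM (n = 6) against 2.34 ± 0.257 CPM (SD, n = 5). There 3 nPM libraries lay below every control, and the exact permutation p was 0.134. That exact p was 0.342 without TMM scaling, where 1 nPM library lay above every control, and 0.0671 with all 12 blood libraries. Fth1 differed by 0.19 ± 0.28 and Ftl1 by -0.05 ± 0.26 on the log2 scale, and Slc40a1 stood at 3.03 ± 0.557 (n = 6) against 2.56 ± 0.419 CPM (SD, n = 5) with an exact permutation p of 0.156. The direction of Fth1 turned when 1 library was left out and that of Ftl1 when any of 4 was.

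**Figure D3:**
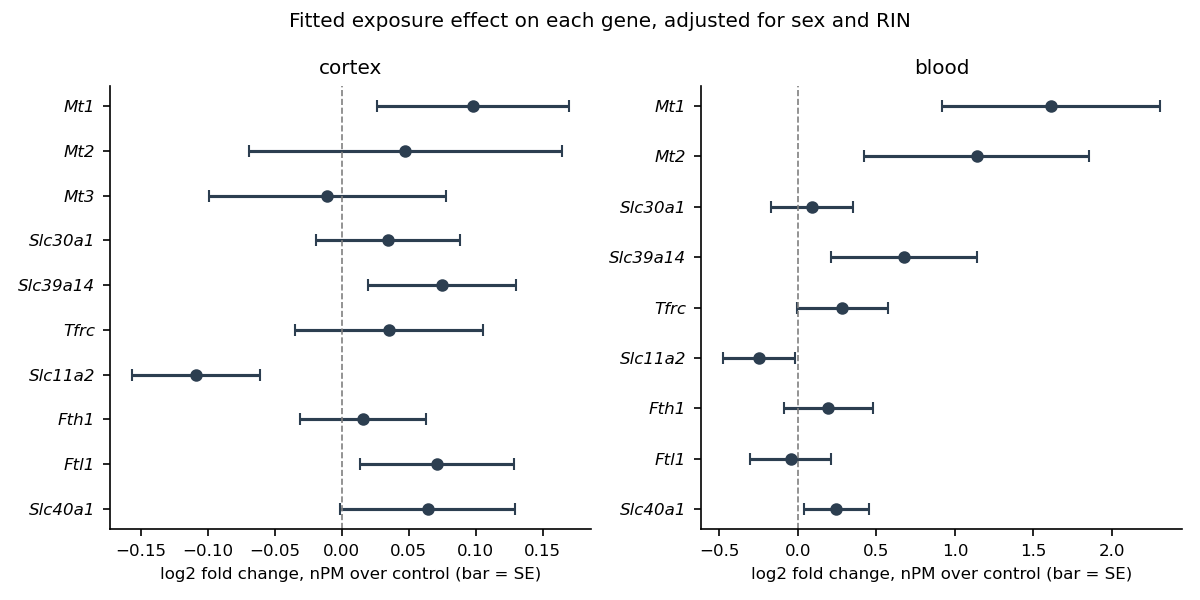
Fitted log2 fold change of nPM over control for each gene tested, in cortex (left) and blood (right), adjusted for sex and RIN, with bars of 1 SE. In cortex Slc11a2 lies lowest at -0.11 and Mt1 highest at 0.10, and in blood Mt1 lies furthest from 0 at 1.61; the horizontal scales differ.

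The sequencing lanes given in the labels do not follow exposure, and differences were taken again within each. They do follow tissue in large part, since lane 1 held blood only, lane 2 cortex only and lane 3 both. Lane and tissue thus cannot be fully told apart in the comparisons across tissues below. In cortex the mean log2 CPM of Slc11a2 was lower with nPM by -0.12 in lane 2 (4 libraries against 4) and by -0.08 in lane 3 (2 against 2). Mt1 and Mt2 changed sign between the cortex lanes, with 0.20 and 0.18 in lane 2 and -0.04 and -0.16 in lane 3. In blood, Mt1 differed by 1.53 and Mt2 by 1.22 in lane 1, but by -0.28 and -0.71 in lane 3. Slc11a2 in blood differed by -0.08 in lane 1 and by -0.77 in lane 3. With lane in the blood fit, the log2 differences were 0.89 for Mt1 and 0.43 for Mt2, and the edgeR unadjusted p of Mt1 was 0.147, no longer under 0.05.

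The study examined both sexes separately. In female cortex none of the 10 genes passed an adjusted p of 0.05 in edgeR, where 1.11% of 21731 genes did. At an unadjusted p under 0.05, 3 of the 10 passed, Slc11a2, Fth1 and Ftl1, against 15.4% of all genes. Slc11a2 was 39.4, 44.2 and 42.1 CPM in control females and 35.5, 36.9 and 39.0 CPM in nPM females, and the groups did not overlap. Fth1 was 277, 283 and 281 CPM in control females and 301, 308 and 300.1 CPM in nPM females. Ftl1 was 483, 478 and 468 CPM in control females and 491, 551 and 546 CPM in nPM females. The 2 ferritin subunits did not overlap between female groups either, both being higher with nPM. The log2 differences were -0.18 for Slc11a2, 0.10 for Fth1 and 0.15 for Ftl1, with unadjusted edgeR p-values of 0.0172, 0.0471 and 0.0226 and adjusted ones of 0.211, 0.317 and 0.235. With 3 libraries against 3, no permutation test can go below 0.10, and none is given. For the same reason a lack of overlap says little by itself, and its share over all genes was not counted.

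In male cortex no gene passed at an adjusted p of 0.05 in edgeR (0.0% of 21670), and none of the 10 passed at an unadjusted p under 0.05, as 4.51% of all genes did. DESeq2 called 3 genes of all and limma voom 0. Slc11a2 was 38.3, 40.2 and 40.4 CPM in control males and 38.1, 38.7 and 38.7 CPM in nPM males. Fth1 was 331, 301 and 338 CPM in control males and 318, 299.9 and 298 CPM in nPM males, so it was lower rather than higher. Ftl1 was 531, 578 and 466.2 CPM in control males and 514, 548 and 495 CPM in nPM males.

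The test of the difference itself is the nPM-by-sex term, the effect in males minus that in females. No gene passed it at an adjusted p of 0.05 in edgeR in cortex (0.0%) or in blood (0.0%), where DESeq2 called 50 and 4 genes of all and limma voom 0 in each. In cortex 1 of the 10 passed at an unadjusted p under 0.05, against 9.68% of all genes. It was Fth1, at -0.20 ± 0.08 with an unadjusted p of 0.0257 and an edgeR adjusted p of 0.468. In blood 2 of 9 passed at an unadjusted p under 0.05, against 10.7% of all genes. They were Fth1 again, at -1.36 ± 0.48 with an unadjusted p of 0.0105, and Tfrc at -1.24 ± 0.49 with an unadjusted p of 0.0210, both with an edgeR adjusted p of 0.452. For the same term all 10 erythroid markers and all 5 platelet markers were fitted lower, with medians of -0.82 and -1.10, and all 7 lymphocyte markers and all 6 neutrophil markers tested were higher, with medians of 0.92 and 0.91. All 5 platelet, 2 erythroid, 1 lymphocyte and 2 neutrophil markers had an unadjusted p under 0.05, and their part in Fth1 and Tfrc was not tested. Slc11a2 in cortex did not differ by sex at that level, with 0.15 ± 0.09 and an unadjusted p of 0.135.

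Female blood showed the widest differences, from 3 nPM and 2 control libraries. None of the 9 genes tested passed an adjusted p of 0.05 in edgeR, where 0.0182% of 11013 genes did. Of the 9, 4 passed at an unadjusted p under 0.05, against 8.11% of all genes, and all 4 were higher with nPM. Mt1 differed by 2.44 and Mt2 by 2.05 on the log2 scale, with unadjusted p-values of 0.00291 and 0.0128. Tfrc was 100.1 and 98.5 CPM in the 2 control females and 132, 139 and 297 CPM with nPM, a log2 difference of 0.99 with an unadjusted p of 0.0264. Fth1 was 552 and 271 CPM in the control females and 881, 433 and 848 CPM with nPM, a log2 difference of 1.00 with an unadjusted p of 0.0277. The smallest edgeR adjusted p among them was 0.573. Leaving out nPM female replicate 3 brought Mt1 to 0.22, Mt2 to 0.02 and Tfrc to 0.43, while Fth1 stayed at 1.06. Leaving out nPM female replicate 1 instead gave edgeR adjusted p-values of 4.04e-14 for Mt1, 1.66e-06 for Mt2 and 0.0229 for Tfrc. That fit called 570 of 11281 genes. It held 2 libraries on each side with RIN as a covariate, so its p-values rest on almost no replication. With all libraries, control female replicate 2 included, Mt1 differed by 0.57 in female blood. In nPM female blood all 5 platelet and all 10 erythroid markers were fitted higher, with median log2 differences of 0.83 and 0.32, and all 7 lymphocyte and 6 of 7 neutrophil markers lower, with medians of -0.80 and -0.38. Of these, 4 platelet, 1 erythroid, 2 lymphocyte and 0 neutrophil markers had an unadjusted p under 0.05. Their part in the member levels was not tested.

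In male blood no gene passed at an adjusted p of 0.05 in edgeR (0.0% of 10602). Of the 9, 2 passed at an unadjusted p under 0.05, against 3.86% of all genes. DESeq2 called 1 gene of all and limma voom 0. These were Mt1 at 1.75 and Mt2 at 1.72 on the log2 scale, with unadjusted p-values of 0.0287 and 0.0328, although 2 of the 3 nPM males had less Mt1 than any control male. Without RIN in the fit the values were 0.99 and 0.27, and without nPM male replicate 3 they were -0.31 and 0.75. Slc40a1 was 2.51, 2.41 and 1.96 CPM in control males and 3.01, 3.46 and 2.75 CPM in nPM males, and these groups did not overlap. The share of all genes without overlap was not counted here either. The male groups of Slc40a1 in cortex and of the other 9 genes in both tissues overlapped. Its log2 difference was 0.44 ± 0.33 with an edgeR adjusted p of 1.00.

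The nPM-by-tissue term asks whether the exposure effect in blood differs from that in cortex. None of the 9 genes passed it at an adjusted p of 0.05 in edgeR, nor did any of 9602 genes (0.0%), where DESeq2 called 37 and limma voom 0. At an unadjusted p under 0.05, 1 of the 9 passed, against 8.06% of all genes. It was Mt1, at 1.69 ± 0.68 with an unadjusted p of 0.0199 and an edgeR adjusted p of 0.512.

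Blood and cortex of control neonates were then compared, 5 libraries against 6, to place the genes in the 2 tissues. Lane goes with tissue apart from lane 3, and the libraries were treated as unpaired. Iron storage was the clearest difference. Ftl1 was higher in blood than in cortex by 7.21 ± 0.22 and Fth1 by 5.17 ± 0.23 on the log2 scale, with edgeR adjusted p-values of 1.69e-15 and 3.74e-13. Of all 17610 genes tested 79.4% passed, 27.1% higher and 52.3% lower in blood, so that passing says little by itself. Of the 10 genes, 8 passed, 5 higher and 3 lower in blood. The call of Slc11a2 (0.35, edgeR adjusted p = 0.0202) was lost under limma voom (adjusted p = 0.0584), with RIN added to edgeR (adjusted p = 0.126), with all blood libraries (edgeR adjusted p = 0.0617), and without blood control female replicate 1, male replicate 1 or male replicate 2 (edgeR adjusted p = 0.0709 to 0.108). The filter keeps a gene that is well counted in 1 tissue only, which is how Mt3 and Slc39a14 entered.

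This comparison depends on scaling, because globin takes most of the blood counts. The median of all genes was -0.96 with TMM and -5.37 on plain library totals, and 34.1% or 5.00% of the calls were higher in blood. Relative to that median, Ftl1 stood 8.16 higher in blood with TMM and 8.04 on plain totals, and Fth1 6.13 and 6.00. Tfrc stood 4.91 and 4.83 above the median, Slc40a1 1.97 and 1.90, Slc11a2 1.30 and 1.23, and Mt2 1.07 and 1.02. Slc30a1 lay 0.76 and 0.71 above it and Mt1 0.31 and 0.25. Below it were Slc39a14, at -1.20 and -1.22, and Mt3 at -4.26 and -4.27. Against 0 rather than the median, Tfrc (3.95 with TMM, -0.54 on plain totals), Slc40a1 (1.01, -3.47), Slc11a2 (0.35, -4.14) and Mt2 (0.11, -4.35) turned sign, and only Fth1 and Ftl1 were higher in blood on both scales.

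A scale that does not use TMM is CPM over the counts outside the globin genes, per kilobase. Ftl1 had a median of 364 in cortex and 9763 in blood, a ratio of 26.8. Fth1 had medians of 338 and 2086, a ratio of 6.17, and Tfrc 31.2 and 75.5, a ratio of 2.42. The other 7 genes were lower in blood on this scale. Mt1 had a median of 23.5 in cortex and 2.43 in blood, Mt2 19.1 and 2.93, Slc30a1 7.97 and 0.933, Slc11a2 6.35 and 1.41, Slc40a1 3.33 and 1.07, and Slc39a14 1.71 and 0.0662. Mt3 had a median of 78.9 in cortex and was at 0 in 3 of the 5 blood controls, with at most 6 counts in the others, which were those of lane 3. No range of a gene in blood overlapped its range in cortex.

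**Figure D4:**
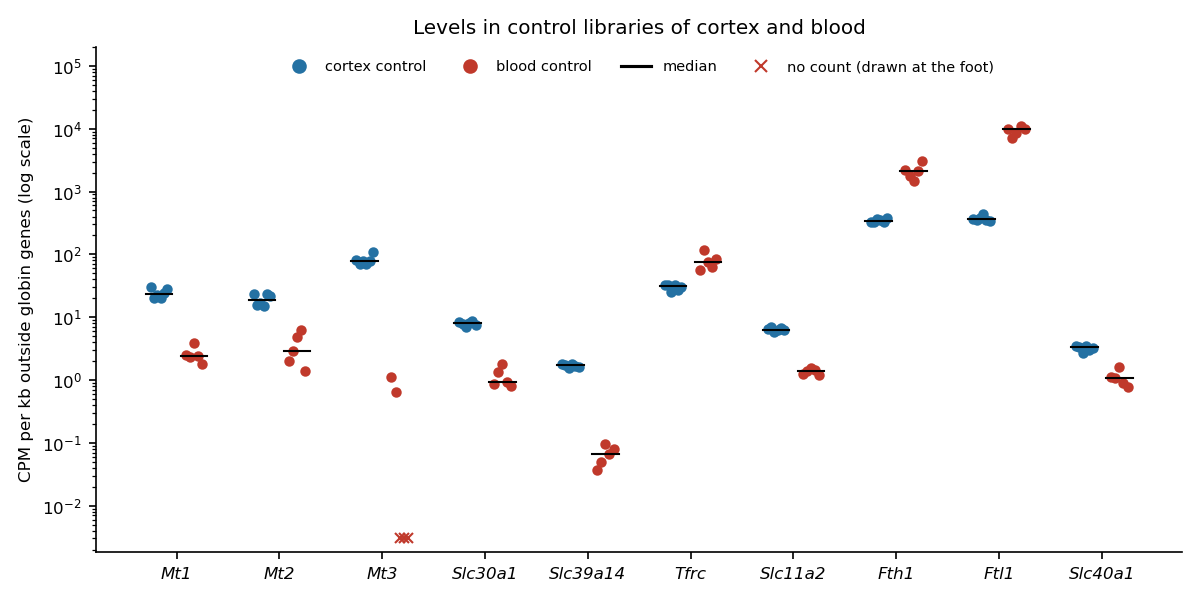
Levels of the 10 genes in the control libraries of cortex and blood, as CPM outside globin genes and per kilobase on a log axis, with a line at each median and crosses at the foot for libraries with no count. Ftl1, Fth1 and Tfrc lie higher in blood and the other 7 lie lower, with medians of Ftl1 at 364 and 9763.

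Relations between members were examined over the libraries of a tissue, in 6 pairs. Mt1 and Mt2 moved together in both tissues. In blood Pearson's r of their log2 CPM was 0.901 over 11 libraries (permutation p = 0.00021, adjusted over the 6 pairs 0.00126) and Spearman's rho was 0.818 (permutation adjusted p = 0.00915). Without the 2 libraries farthest from the median of Mt1, r was 0.712, and without nPM female replicate 3 it was 0.785. Within lane 1, with 7 libraries, r was 0.918, and lane 3 held too few. In cortex r was 0.755 and rho 0.692 over 12 libraries (permutation adjusted p = 0.00982 and 0.0314). That relation rested on 2 controls with low values of both genes, since r was 0.372 without them, and it was 0.886 within controls but -0.133 within nPM libraries.

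**Figure D5:**
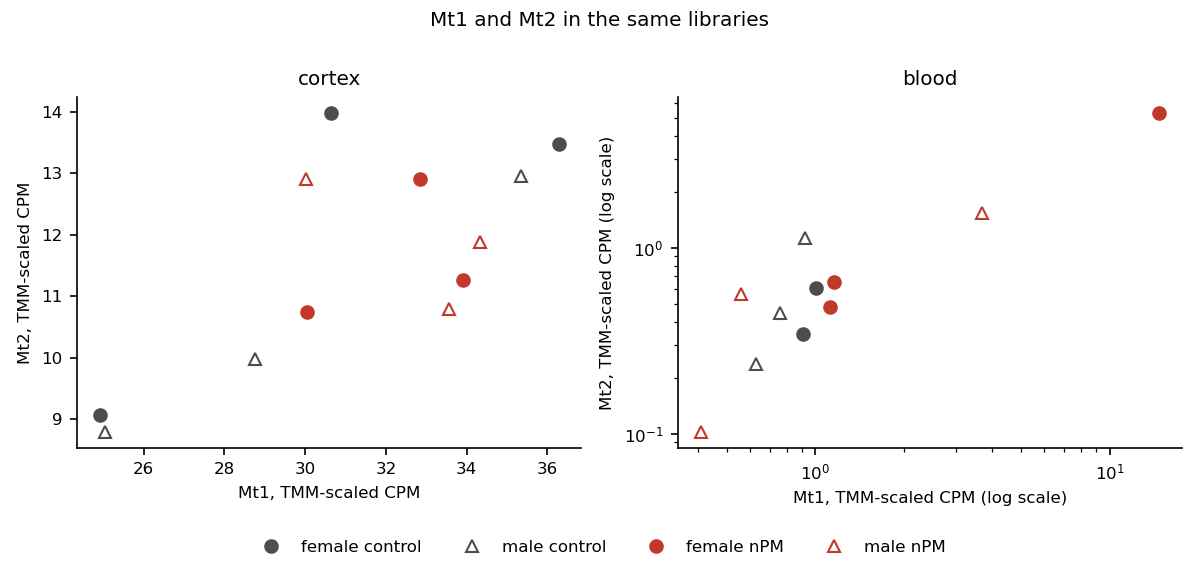
Mt1 against Mt2 as TMM-scaled CPM in cortex (linear axes) and in blood (log axes), with each point a library coloured by exposure and filled for females. Pearson's r is 0.755 over the 12 cortex libraries and 0.901 over the 11 blood libraries, where nPM female replicate 3 lies at the upper right.

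Mt1 and Mt3, which share the cluster, had an r of 0.644 in cortex (permutation adjusted p = 0.0321) and 0.414 without the 2 farthest libraries. Their rho was 0.608 with a permutation adjusted p of 0.0588. The 2 ferritin subunits moved together in blood, with r of 0.844 and rho of 0.855 (permutation adjusted p = 0.00306 and 0.00804), and r was 0.754 without the 2 farthest libraries and 0.795 within lane 1. In cortex their r was 0.204 (permutation adjusted p = 0.625). Tfrc and Slc11a2, which act in sequence in transferrin iron uptake, had an r of 0.124 in blood (permutation adjusted p = 0.724). All libraries of a tissue share its cell mixture and scaling, which these correlations include.

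The genes most like a member were ranked among genes with a mean of at least 5 CPM, as a description. For Mt2 over the 12 cortex libraries, the 5 highest of 12023 genes were Slc33a1, the acetyl-CoA transporter of the endoplasmic reticulum, at r of 0.897, Ocel1 at 0.882, the mineralocorticoid receptor gene Nr3c2 at 0.879, Abca8b at 0.875 and Qk, an RNA-binding protein of glia, at 0.863. Mt1 came in rank 51. For Tfrc over the 11 blood libraries, the 5 highest of 2154 genes were Itm2b at 0.968, Pcmtd2 at 0.967, Mrvi1 at 0.964, the autophagy adaptor Tax1bp1 at 0.955 and the corepressor Ncor1 at 0.951. They stayed at 0.891 to 0.945 without nPM female replicate 3, and Fth1 ranked 909 in that list.

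Another 66 genes of zinc, iron, heme and copper handling were listed from their known roles. In cortex 56 were tested, 28 fitted higher and 28 lower with nPM, and none passed an adjusted p of 0.05 in edgeR. At an unadjusted p under 0.05, 3 of the 56 passed, a share near the 5.67% of all genes. The importer Slc39a8 (ZIP8) ran from 13.7 to 15.6 CPM in controls and from 15.4 to 17.8 CPM with nPM, a log2 difference of 0.20 ± 0.06 with an unadjusted p of 0.00546. The synaptic vesicle zinc transporter Slc30a3 (ZnT3) ran from 25.2 to 48.1 CPM in controls and from 25.1 to 35.9 CPM with nPM, a difference of -0.35 ± 0.13 with an unadjusted p of 0.0143. The ferric reductase Cybrd1 ran from 4.83 to 8.52 CPM in controls and from 7.02 to 9.18 CPM with nPM, a difference of 0.28 ± 0.13 with an unadjusted p of 0.0397. Their edgeR adjusted p-values lay between 0.808 and 0.862, and Slc30a3 alone of these passed with genes counted in any library (edgeR adjusted p = 0.000245), where 185 of 32461 genes did. In blood 42 were tested, 27 higher and 15 lower, and none passed at an unadjusted p under 0.05. A list of 10 glucocorticoid response genes, kept because glucocorticoids raise Mt1 and Mt2, had 3 higher and 7 lower in cortex with 1 at an unadjusted p under 0.05, and 3 higher and 3 lower of 6 tested in blood.

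Between the tissues 48 of the 57 metal genes tested passed an adjusted p of 0.05 in edgeR, 24 higher and 24 lower in blood, where 79.4% of all genes passed, 27.1% higher and 52.3% lower. Mitochondrial iron genes were higher in blood in 6 of 7 cases, led by Slc25a37 (mitoferrin), which stood at 4178 CPM in blood and 14.7 CPM in cortex by the median of controls. Heme iron genes were higher in 5 of 7, among them haptoglobin (Hp) at 3.99 CPM in blood and 0.0468 CPM in cortex, and lipocalin 2 (Lcn2), a siderophore-binding protein of neutrophils, at 3.71 and 0.102 CPM. Zinc importers were lower in blood in 9 of 13 and higher in 2. Toward cortex, the genes named by fitted fold were Steap2 and Cybrd1, both ferric reductases with 0 counts in all 5 blood controls and medians of 11.5 and 6.47 CPM in cortex, and Slc39a12 (ZIP12), at 25.3 CPM in cortex and at most 0.0447 CPM in blood. A fitted fold against 0 counts sets no order among them, and with all blood libraries Cybrd1 differed by -0.59 (edgeR adjusted p = 0.597). Scaling bears on this split as it does on the 10 genes.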

How the data were processed

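RNA-seq was measured in 24 libraries, 12 per tissue. Per the study's methods and the submitters' processing notes, reads were trimmed, aligned to mm10 with HISAT2 and counted per Gencode M11 gene with featureCounts. The authors deposited raw counts for 48709 genes with the gene length in bases and mean RPKM values, and the last were not used in any test. Use of strand and treatment of reads with several matches are not given in the sources used here.

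The counts were tested with edgeR 4.0.16 (quasi-likelihood F test, TMM, at least 1 count in every library, RIN as covariate, and sex where both sexes were fitted) under R 4.3.3, with Benjamini-Hochberg adjustment over all genes tested. The tissue comparison used control libraries, edgeR's filterByExpr and sex. The SE given with an edgeR log2 fold change is its absolute value divided by the square root of the F statistic. The script was tested on simulated data. Blood control female replicate 2 was left out as described. Correlations used log2 CPM with a prior of 0.5 and 100000 permutations, and exact permutation tests compared means. Groups came from the labels. Replicate numbers only name libraries, and p-values within a tissue measure the spread between neonates. Alternatives included DESeq2 1.42.0, limma 3.58.1 (voom), other filters and scalings, sequencing lane, RIN, and each library left out. The members and gene lists were chosen with earlier results of these data known. Comparisons of one tissue share their control libraries. Named genes outside the 10 were up to 4 per tissue of the metal lists with the smallest unadjusted p under 0.05, the 3 largest tissue differences in each direction, and the 5 genes most like Mt2 and Tfrc. The keratinocyte list, and correlations and levels without blood nPM female replicate 3, were added after seeing the data.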

Additional observations from a re-analysis of the deposited data

Results flagged for a closer look

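In nPM blood, female replicate 3 stood apart from the other 5 libraries of its exposure in Mt1, at 14.73 CPM against 0.4086 to 3.696, and in Mt2, at 5.27 CPM against 0.1021 to 1.531. In control cortex, male replicate 3 held 119.8 CPM of Mt3 against 74.86 to 86.85 in the other 5. Blood nPM male replicate 2 had the highest summed astrocyte markers of the blood libraries used, at 34.3 CPM. It held 0.5618 CPM of Mt3, from 12 counts, against 0 to 0.2043 in the other nPM blood libraries. These are 4 of 40 groups examined by Dixon's criterion at the 95% level, which chance alone meets now and then. The blood library left out of the comparisons, control female replicate 2, exceeded the other 11 in 6 genes, with 53.41 CPM of Mt1, 68.38 of Mt2, 86.99 of Slc30a1, 13.51 of Slc39a14, 19.41 of Slc11a2 and 60.92 of Slc40a1.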

How the results depend on the processing

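No paired analysis was possible because the labels give no replicate numbers that tie libraries together. The paper describes the blood and cortex as taken from the same animals. The tissue comparison and the nPM-by-tissue term treated their libraries as independent, so their p-values ignore this pairing. Of the values recomputed, 1313 kept direction and side of the threshold, 64 turned direction, 10 lost and 9 gained a call, and 5 moved otherwise. This tally holds single-gene folds with 1 library left out only for nPM in cortex, nPM in blood and the tissue comparison. For the single-sex fits and both interaction terms it holds the number of members called. The cause was not tested. Leaving out each library gave ranges in cortex of -0.0168 to 0.13 for Mt2, -0.0605 to 0.0957 for Mt3, -0.0147 to 0.0703 for Tfrc and -0.0063 to 0.0416 for Fth1, in blood of -0.0533 to 0.37 for Fth1 and -0.20 to 0.13 for Ftl1, and between tissues of -0.23 to 0.24 for Mt2. With all 12 blood libraries the nPM differences in blood were -0.67 for Slc30a1, -0.47 for Slc39a14, 0.24 for Ftl1 and -0.0791 for Slc40a1. With control female 3 left out in place of 2 they were -0.11 for Mt2, -0.78 for Slc30a1, -0.62 for Slc39a14, 0.22 for Ftl1 and -0.14 for Slc40a1, and with control 1 in its place -0.60, -0.94, -0.65, 0.45 and -0.15. The sex term in blood was 0.0864 for Mt1 and 0.85 for Mt2 with all libraries, 0.54, 1.40 and, for Slc11a2, 0.14 with control 3 left out, 0.61 for Mt1 and 1.38 for Mt2 with control 1 left out, and -0.32 for Slc39a14 without RIN. Without RIN the sex term of Mt1 in cortex was 0.0587, Slc40a1 was -0.00176 in female cortex and 0.0251 in female blood, and Ftl1 was -0.00948 in male cortex and -0.25 in male blood. Female blood with all libraries gave -0.76 for Mt2 and -1.60 for Slc39a14, and DESeq2 gave 0.00101 for Slc30a1. Between tissues, nPM libraries gave 1.47 for Mt1 and 0.11 for Slc30a1, all blood libraries 0.16 and 0.49, plain totals -4.35 for Mt2, -0.54 for Tfrc, -4.14 for Slc11a2 and -3.47 for Slc40a1, and a count in every library -0.24 for Mt2 and -0.0142 for Slc11a2. The nPM-by-tissue term with all blood libraries was -0.72 for Mt2, -0.92 for Slc30a1, -1.03 for Slc39a14, 0.16 for Ftl1 and -0.23 for Slc40a1. With genes counted in any library, the members called numbered 1 in blood (Mt1; 28 of 22409 genes called), 2 in female blood (59 of 19638) and 1 for the nPM-by-tissue term (330 of 33183). In female blood 0 to 3 were called as single libraries were left out, and 5 between tissues with all blood libraries. The correlation of Mt1 with Mt2 in cortex was 0.37 and with Mt3 0.41 without the 2 farthest libraries, and that of Tfrc with Slc11a2 in blood was -0.12 with all libraries. Over all genes the number called ranged in these alternatives from 0 to 185 in cortex (3 as reported), 0 to 28 in blood (0), 0 to 379 and 0 to 81 for the sex term in cortex and blood (0 each), 23 to 1280 in female cortex (241), 0 to 155 in male cortex (0), 0 to 570 in female blood (2), 0 to 83 in male blood (0), 8861 to 17256 between tissues (13991) and 0 to 330 for the nPM-by-tissue term (0). The low counts of Mt1, Mt2, Mt3 and Slc39a14 in blood limit their precision.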
